A study of Homo sapiens with 4 samples.

Results

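MT-RNR2 (RNR2 in RefSeq) encodes the 16 S mt-rRNA, the RNA scaffold of the large mitoribosomal subunit (mt-LSU), and occupies chrM:1671-3229 on the plus strand of hg38, 1559 nt. Its binding sites were taken from 4 site lists as the plus-strand mitochondrial sites with most of their overlap in RNR2. This gave 10 sites of 2341 in all: 2 in each of the 3 GTPBP8::FLAG libraries, which listed 440, 716 and 426 sites, and 4 of the 759 sites of the AUH::V5 library. No site of any library lay on the minus strand over RNR2.

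The sites come from fPAR-CLIP, in which 4-thiouridine (4SU) is fed to the cells and incorporated in place of uridine. Under UV light it forms a covalent bond with a protein in contact, the RNA is trimmed with RNase T1, and the bonded base is later sequenced as C where the genome has T. Both proteins carried a tag and were expressed in stable HEK293 T-REx cells, a human embryonic kidney line with the Tet repressor, from a promoter induced by doxycycline, and no library came from uninduced cells. GTPBP8::FLAG, the human homolog of the bacterial ribosome assembly GTPase EngB, was measured in 3 biological replicates. AUH::V5, a mitochondrial enoyl-CoA hydratase that also binds RNA, was measured in 1 library. All 4 cultures received 50 ng/ml doxycycline for 48 h, 100 µM 4SU for 16 h and UV light of 312 nm for 5 min.

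The 16 S mt-rRNA folds into domains whose helices are laid down during assembly of the mt-LSU. Domain V forms the peptidyl transferase centre (PTC), where peptide bonds are made, and its A loop holds the end of the incoming tRNA. Methyltransferases and pseudouridine synthases modify single bases of the rRNA while the subunit matures.

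The sequences of the 5′ site are given first because the conversions reported for them can fall on T alone. All are on the plus strand of chrM in hg38, read 5′ to 3′ from the deposited lists, and capitals mark every T, at which 4SU can have been incorporated. The first GTPBP8 site began 2 nt upstream of the RNR2 5′ end in replicates 1 and 2 and 1 nt upstream in replicate 3, within the 3′ end of the valine tRNA gene (TRNV), and is called the 5′ site. The other GTPBP8 site, chrM:2944-3106 in all replicates, lay over the PTC helices and is called the PTC site. The first sequence is the 5′ site as listed in replicate 1 and the second the part by which the site of replicate 2 ran on.
5′ site, chrM:1669-1739: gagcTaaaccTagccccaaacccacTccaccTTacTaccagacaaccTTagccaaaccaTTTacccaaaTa
Tail in replicate 2, chrM:1740-1871: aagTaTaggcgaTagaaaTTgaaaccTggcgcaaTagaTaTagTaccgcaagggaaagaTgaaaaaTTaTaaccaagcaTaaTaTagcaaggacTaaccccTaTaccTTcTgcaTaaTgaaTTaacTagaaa

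The 5′ site had less T than the median of the other plus-strand mitochondrial sites in every library, and the PTC site had more T and more G. T made up 16.9% of the 71 nt in replicate 1 and 16.7% of the 66 nt in replicate 3, and 19.7% of the 203 nt in replicate 2. Of the PTC site, 29.4% was T. The other plus-strand mitochondrial sites, 13 to 15 in a library, had a median T content of 24.7%, 25.7% and 23.4% and a lowest of 15.5%, 15.1% and 15.5% in replicates 1, 2 and 3. G made up 22.1% of the PTC site, beside medians of 13.5%, 12.8% and 12.8% at the other plus-strand sites. At the 5′ site it made up 7.04% in replicate 1 and 6.06% in replicate 3, below those medians, and 14.3% in replicate 2, above. The pentamer ATTTA, the core of AU-rich elements, occurred once in the 5′ site, from 1727, and in no other RNR2 site of either protein, searched on the site strand. It was present in 6.82%, 7.26% and 8.69% of all sites in GTPBP8 replicates 1, 2 and 3 and in 3.82% of the AUH sites, at median site lengths of 27 to 30 nt. Among the other mitochondrial sites, whose median length was 57, 54 and 55 nt in the GTPBP8 libraries and 40 nt for AUH, it was present in 19.0%, 31.6% and 19.2% and in 2.47%.

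The 4 AUH sites lay elsewhere on RNR2 and are called sites A to D in the order of the RNA. They are shown because they share no nucleotide with a GTPBP8 site. Listed sites covered 14.9%, 23.3% and 14.6% of RNR2 in GTPBP8 replicates 1, 2 and 3 and 12.9% in the AUH library. The AUH list held only 392 reads on RNR2. Whether the lack of overlap goes beyond that of any sites of this extent was not tested.
AUH site A, chrM:2230-2279: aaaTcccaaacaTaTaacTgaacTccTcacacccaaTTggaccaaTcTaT
AUH site B, chrM:2617-2676: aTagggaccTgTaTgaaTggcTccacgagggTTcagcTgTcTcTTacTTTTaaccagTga
AUH site C, chrM:2884-2910: cTaTacTcaaTTgaTccaaTaacTTga
AUH site D, chrM:3166-3242: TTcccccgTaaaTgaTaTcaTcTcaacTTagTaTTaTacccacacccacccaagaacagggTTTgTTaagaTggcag

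Set against the structure of the 16 S mt-rRNA, the listed GTPBP8 sites fell in domains I and V. The study itself did not assign GTPBP8 a single binding site on this rRNA. It gave RNase access and the sequence and structure of the rRNA as reasons. The 6 stretches compared are those the study names, with coordinates, as disordered in some or all mt-LSU intermediates of its GTPBP8 knock-out cells. In order along the RNA they measured 28, 85, 32, 111, 40 and 165 nt, of the 1559 nt of RNR2. Whether the sites overlap them more than this extent would give was not tested. The 5′ site held the whole of a 28-nt stretch of domain I in replicates 1 and 2 and 27 nt of it in replicate 3. The shared part was 39.4%, 13.8% and 40.9% of the 5′ site in replicates 1, 2 and 3. The PTC site shared 94.5% of the nucleotides of helices H89-93, and these were 95.7% of the site. No GTPBP8 site reached H33-35a, H65, H67-71 or H80-81, although the last belongs to domain V as well. AUH site B overlapped H67-71, helices of domain IV, by 33 nt. AUH site C lay between H80-81 and H89-93, 33 nt before the PTC site, and site D began 59 nt after it and ran 13 nt into the leucine tRNA gene TRNL1. Sites A, C and D overlapped none of the 6 stretches.

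Of 5 modified bases looked at, the PTC site, which covers 163 of the 1559 nt of RNR2, held 3 in every library. These were Um3039, methylated by MRM2, Gm3040, methylated by MRM3, both in the A loop, and the pseudouridine Psi3067, made by RPUSD4. They are nucleotides 1369, 1370 and 1397 of the RNA and stood at positions 96, 97 and 124 of the 163 nt of the site. The base in the lists was the expected one at each of them. Um3039 and Gm3040 are adjacent, and the site had the same ends in every library, so the libraries repeat the same overlap. Whether the site holds more modified bases than its share of RNR2 would give was not tested. Gm2815, methylated by MRM1, was in no site of either protein, and the nearest was AUH site C, 69 nt away. mA2617, the base methylated by TRMT61B, was the first nucleotide of AUH site B. The 5′ site held none of the 5 bases in any library.

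The position at which the site caller placed the peak of the conversion signal was the same base in all 3 GTPBP8 libraries at both sites. At the 5′ site it was chrM:1689, nucleotide 19 of the RNA, a C that lies 5 nt from the nearest T. At the PTC site it was chrM:3080, nucleotide 1410 of the RNA, a G that lies 3 nt from the nearest T, 13 nt downstream of Psi3067 and 41 nt downstream of Um3039. The peak score, which can reach 1, was 0.897, 0.833 and 0.869 at the 5′ site and 0.806, 0.786 and 0.792 at the PTC site in replicates 1, 2 and 3. The first set lay above the second without overlap.

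**Figure D1:**
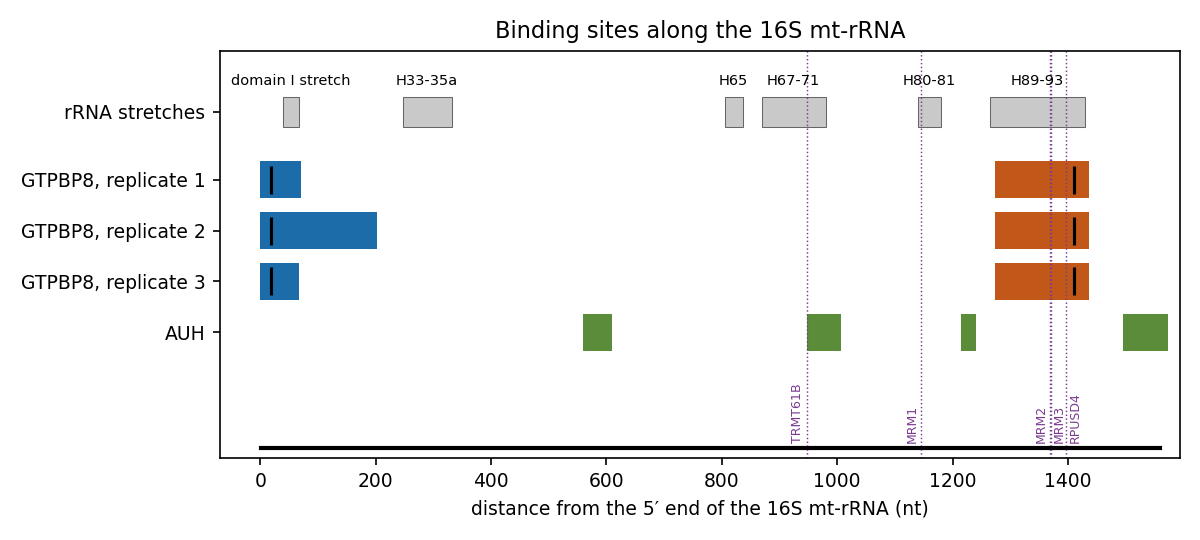
Binding sites along the 16 S mt-rRNA, as distance from its 5′ end in nt, with 1 row for each library. Blue bars are the 5′ site, orange bars the PTC site and green bars the AUH sites. Black ticks mark the peak of the conversion signal, grey bars the 6 rRNA stretches, and dotted lines the bases modified by the named enzymes. The ticks stand at nucleotides 19 and 1410 in all 3 GTPBP8 libraries, and no green bar overlaps a blue or orange one.

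The edges of the sites differed more than their peaks. The PTC site had the same first and last base in all 3 libraries, whereas the 5′ site ended at 1739, 1871 and 1735 in replicates 1, 2 and 3. Sites of the 3 libraries shared 228 nt of RNR2, and 565 nt of RNR2 lay in a site of either protein. The PTC site stopped at the base before 3107, a position that the reference mitochondrial sequence keeps as a placeholder without a base. The number of plus-strand mitochondrial sites of any library that ran across this border was 0, and the part of the placeholder in the edge of the site was not tested. The lists number the groups of reads from which sites were called, and these numbers rise along the plus strand. Between both RNR2 sites 2, 2 and 1 numbers were skipped in replicates 1, 2 and 3, and those groups are not in the lists used here. The lists as a whole hold 440, 716 and 426 sites with group numbers of up to 7326, 11276 and 6286.

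The 5′ site had more reads than the PTC site in every GTPBP8 library. It held 228735, 452570 and 225530 reads in replicates 1, 2 and 3, and the PTC site held 99894, 93449 and 85939. In raw reads the PTC site varied little between replicates, while the 5′ site of replicate 2, the longest, had about the reads of the other pair combined. The sites ranked 1 and 2 by reads in each list. As shares of all site reads, the 5′ site took 56.8%, 72.1% and 55.9% and the PTC site 24.8%, 14.9% and 21.3%. By share both sites varied, with means of 61.6% ± 9.10 and 20.3% ± 5.03 (SD, n = 3).

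The ratio of the 5′ site to the PTC site was 2.29, 4.84 and 2.62 in replicates 1, 2 and 3 and averaged 3.25 ± 1.39 (SD, n = 3). A two-sided exact sign-flip test on the log2 ratios gave p = 0.25, which is the smallest p that 3 libraries allow, and 0.25 after Benjamini-Hochberg adjustment over the 6 tests of RNR2 made here. Per nucleotide of site the 5′ site exceeded the PTC site 5.26, 3.89 and 6.48 times (5.21 ± 1.30 on average, SD), so that replicate 2 had the highest ratio by reads and the lowest per nucleotide. In distinct read sequences, of which the 5′ site had 57892, 138466 and 55453 and the PTC site 34551, 37801 and 34240, the mean ratio was 2.32 ± 1.16 (SD, n = 3).

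The AUH sites had far fewer reads at a far lower depth. Sites A, B, C and D held 107, 104, 49 and 132 reads of 9684 in the library, against 402701, 627603 and 403172 site reads in GTPBP8 replicates 1, 2 and 3. They ranked 14, 15, 35 and 9 by reads among the AUH sites. Their shares of the RNR2 reads were 27.3%, 26.5%, 12.5% and 33.7%, more even than the 69.6%, 82.9% and 72.4% that the 5′ site alone took in GTPBP8 replicates 1, 2 and 3. For site D the list gives a total of 396 reads and a mean read length of 90 nt, both 3 times what its converted reads and their fraction give (132 reads; 30 nt after the same division). The total implied by the fraction was used, since for the other AUH sites on RNR2 the listed total equals it.

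**Figure D2:**
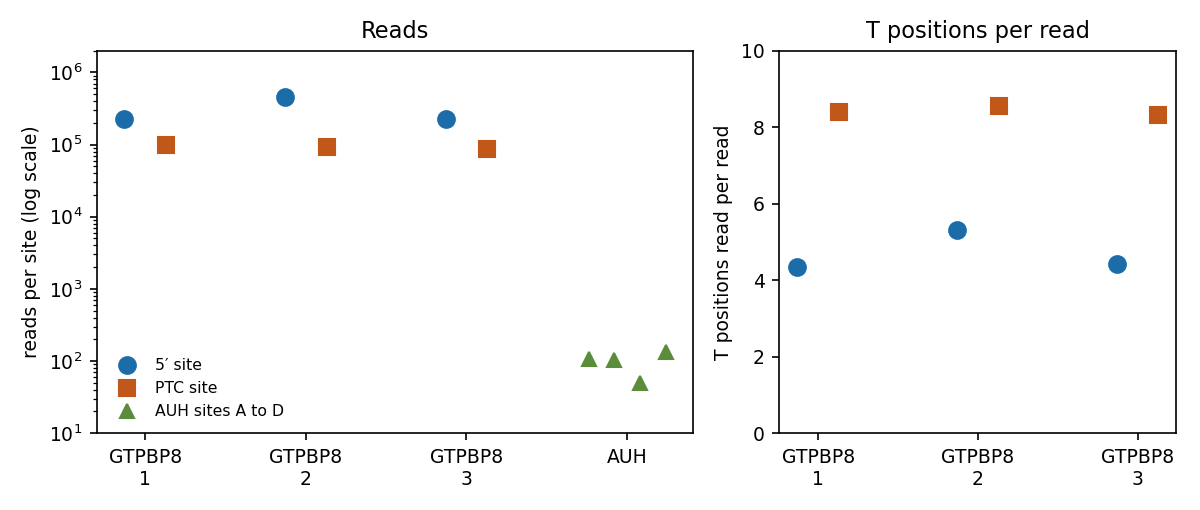
Left, reads per RNR2 site in each library on a log scale. Right, T positions read per read at both GTPBP8 sites. Each point is 1 site of 1 library. The 5′ site lies above the PTC site by reads in every GTPBP8 library, while reads of the PTC site cover 8.31 to 8.55 T positions and those of the 5′ site 4.35 to 5.33. The AUH sites hold 49 to 132 reads.

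T-to-C changes were counted at nearly every T of both GTPBP8 sites. All 12 T of the 5′ site in replicate 1, all 11 in replicate 3 and 39 of 40 in replicate 2 were converted in at least some reads. Of the 28 T in the tail of replicate 2, at least 27 were therefore converted. Every one of the 48 T of the PTC site, Um3039 and Psi3067 among them, was converted in at least some reads in every library. At the other plus-strand mitochondrial sites the median share of T converted was 90.4%, 92.9% and 88.2%. Those sites had a median of 1003.5, 864 and 1022 reads, beside 85939 to 452570 at the RNR2 sites. The part of depth and of sequencing error in these counts was not tested. The AUH sites, at their lower depth, had conversions at 7 of 11, 9 of 18, 5 of 9 and 12 of 20 T from A to D, beside a median share of 85.7% over the 67 other AUH sites on the plus strand.

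Per T that was read, the 5′ site was converted more often than the PTC site in all 3 libraries. The 5′ site had 159049, 262385 and 164123 conversion events and 836910, 2147567 and 831048 unchanged T observations in replicates 1, 2 and 3. The PTC site had 68004, 60964 and 56522 events and 771499, 738342 and 657561 unchanged observations. This is a conversion rate of 16.0%, 10.9% and 16.5% at the 5′ site and of 8.10%, 7.63% and 7.92% at the PTC site. The rates did not overlap, and replicate 2, with the longer 5′ site, had the lowest of the former. The difference was 6.57 ± 2.89 percentage points (SD, n = 3; exact two-sided sign-flip p = 0.25, the smallest possible), and 8.22 without replicate 2.

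Per read, the sites could not be separated. The share of reads listed with a conversion was 64.2%, 52.7% and 67.0% at the 5′ site and 63.9%, 60.3% and 61.5% at the PTC site. By this share the 5′ site was higher in replicates 1 and 3 and lower in replicate 2. The mean difference was -0.62 ± 6.61 percentage points (SD, n = 3), with an exact sign-flip p of 1. A read of the 5′ site covered 4.35, 5.33 and 4.41 T positions on average, and one of the PTC site 8.40, 8.55 and 8.31. Events per read came to 0.668 ± 0.0778 at the 5′ site and 0.664 ± 0.0151 at the PTC site (SD, n = 3). Events over reads listed as converted came to 1.09 at the 5′ site and 1.07 at the PTC site. This ratio need not be the mean number of events in a converted read. At the PTC site of replicate 1, 68004 events stood beside 63573 reads with a single T-to-C change and no other mismatch. Those were 63.6% of reads, beside 63.9% listed as converted. The listed share may therefore leave out converted reads with further mismatches. Most reads listed as converted had this single change as their only mismatch.

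Single mismatches of another kind were rare at both sites. Reads with 1 T-to-C change and no other mismatch made up 62.9%, 51.9% and 66.0% at the 5′ site and 63.6%, 60.0% and 61.2% at the PTC site. Reads with 1 mismatch of another kind made up 4.19%, 5.48% and 4.45% and 6.84%, 7.48% and 7.53%. The former outnumbered the latter 15.0, 9.47 and 14.8 times at the 5′ site and 9.31, 8.01 and 8.13 times at the PTC site in replicates 1, 2 and 3. Reads with no mismatch were 26.4%, 37.5% and 23.6% of the 5′ site and 26.3%, 28.7% and 28.0% of the PTC site.

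Relative to the other mitochondrial sites, both RNR2 sites stood on opposite sides of the median conversion rate. The median over the 21, 19 and 26 other sites was 10.0%, 8.25% and 9.68% in replicates 1, 2 and 3. The 5′ site was 5.93, 2.64 and 6.82 percentage points above it, and the PTC site differed from it by -1.94, -0.62 and -1.76 points. By conversion rate the 5′ site ranked 3 of 23, 5 of 21 and 3 of 28 mitochondrial sites, and the PTC site 15, 14 and 17. This split by site was drawn up after the values were seen and was not tested.

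With both sites pooled, RNR2 had a conversion rate of 12.4%, 10.1% and 12.9%. The difference from the median of the other sites was 2.46 ± 0.71 percentage points (SD, n = 3), with an exact two-sided sign-flip p = 0.25, the smallest possible (0.25 adjusted over 6 tests). It shrank to 1.42 points relative to plus-strand sites only, and to 1.04 points relative to the other sites pooled, with the opposite sign in replicate 2. As a share of reads listed with a conversion, RNR2 differed from the median of the other sites by 7.09, -1.79 and 8.11 points in replicates 1, 2 and 3. The RNR1 site common to the 3 libraries (chrM:1500-1562, to 1559 in replicate 2, in the 12 S mt-rRNA of the small subunit) had 12.3%, 11.0% and 12.5%, and relative to it the mean difference turned to -0.13 points.

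**Figure D3:**
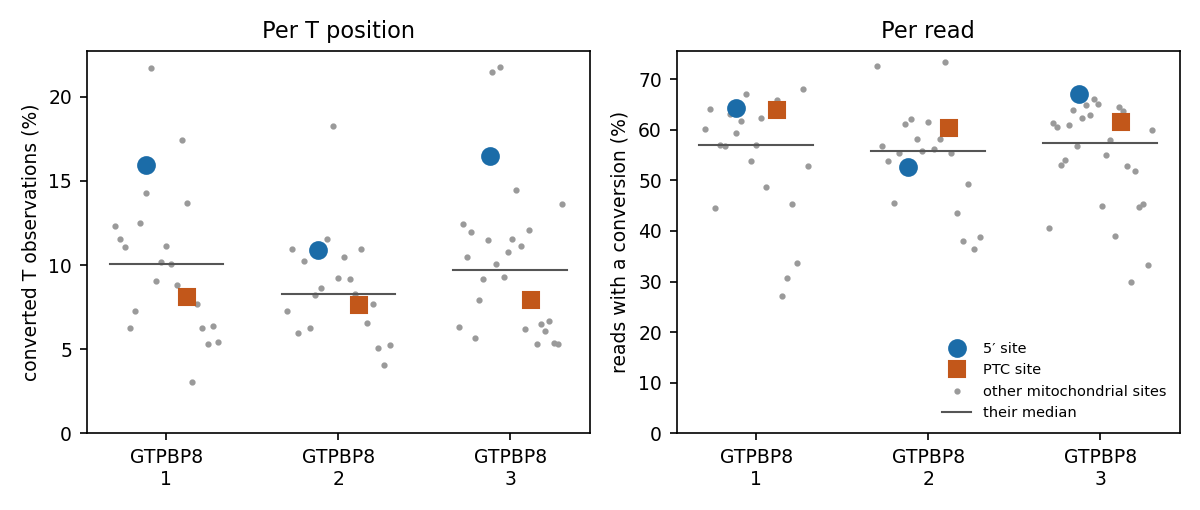
Conversion in the 3 GTPBP8 libraries, left as converted T observations in percent of all T observations, right as reads listed with a conversion in percent. Blue circles are the 5′ site, orange squares the PTC site, grey dots the other mitochondrial sites and lines their median. On the left the 5′ site lies above and the PTC site below the median in every library. On the right both lie within 52.7% to 67.0%.

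The RNR2 sites had more reads per distinct read sequence than most mitochondrial sites. Reads per distinct read sequence were 3.95, 3.27 and 4.07 at the 5′ site and 2.89, 2.47 and 2.51 at the PTC site in replicates 1, 2 and 3. The share of reads whose sequence was read more than once was 84.4%, 82.4% and 84.9% at the 5′ site and 79.4%, 76.4% and 75.6% at the PTC site. The 5′ site ranked first of all mitochondrial sites in every library. The PTC site ranked behind the common RNR1 site, which had 2.92, 2.67 and 2.92 at fewer reads (27201, 27013 and 30662).

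Pooled over RNR2 the value was 3.55, 3.10 and 3.47, against a median of 1.40, 1.51 and 1.34 at the other mitochondrial sites. The ratio was 2.40 ± 0.30 (SD, n = 3; exact two-sided sign-flip p = 0.25, the smallest possible; 0.25 adjusted over 6 tests). It was 1.19 relative to the common RNR1 site, still above 1 in 3 of 3 libraries. Over all mitochondrial sites of a library, reads and reads per distinct sequence had a Spearman rho of 0.65, 0.46 and 0.61 (n = 23, 21 and 28 sites of 1 library each), and of 0.54, 0.28 and 0.51 with RNR2 left out. Copies made in PCR and repeated capture of the same RNA cannot be told apart, because the lists hold no molecular identifiers.

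The reads ended mostly at G, after which RNase T1 cuts. Read ends at G made up 91.9%, 69.1% and 94.2% at the 5′ site and 95.3%, 92.7% and 94.5% at the PTC site. Replicate 2 was the exception at the 5′ site. The 5′ site of replicate 1 had only 5 G, with a run of 27 nt after the G at 1681 that held none, and its last 20 nt held none. The tail of replicate 2 had 24 G and the PTC site 36. The sites themselves ended on A at the 5′ site and on C at the PTC site.

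The share over RNR2, weighted by reads, was 92.9%, 73.2% and 94.3%, and the median of the other mitochondrial sites was 34.7%, 26.5% and 18.2%. The difference was 60.3 ± 14.8 percentage points (SD, n = 3; exact two-sided sign-flip p = 0.25, the smallest possible; 0.25 adjusted over 6 tests). The minus-strand sites, none above 34.6%, lowered that median. Among plus-strand sites only, an alternative chosen after seeing the data, the difference was 24.6 points, and with a read-weighted mean of the other sites it was 10.2 points and was negative in replicate 2. The common RNR1 site, at 95.05%, 93.05% and 94.98%, lay above RNR2 in all 3 libraries. The RNR2 share minus the RNR1 share was -7.57 points on average and -19.9 in replicate 2.

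**Figure D4:**
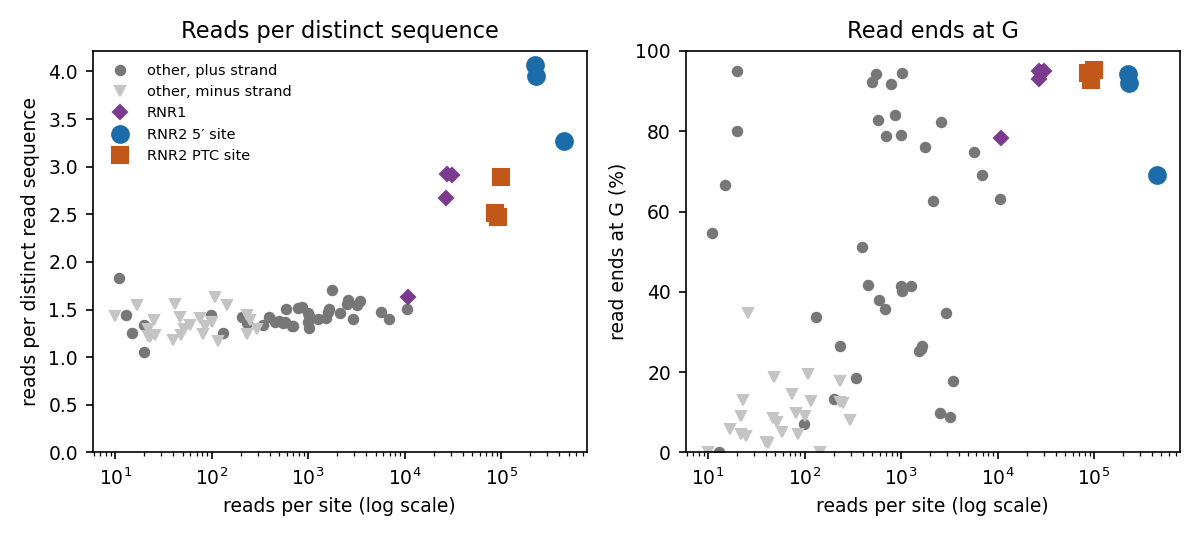
Each mitochondrial site of the 3 GTPBP8 libraries by its reads (log scale) and, left, its reads per distinct read sequence or, right, its share of read ends at G in percent. Blue circles and orange squares are the RNR2 sites, purple diamonds the RNR1 sites, grey symbols the other sites by strand. The 5′ site has the highest values on the left, and its replicate 2 stands at 69.1% on the right.

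The last comparison was between the proteins. By the listed fractions, 64.1%, 54.0% and 65.5% of the RNR2 reads of GTPBP8 replicates 1, 2 and 3 had a conversion, a mean of 61.2% ± 6.30 (SD, n = 3). For AUH it was 206 of the 392 reads, 52.6% (95% Wilson interval 47.6 to 57.4). AUH was below all 3 GTPBP8 libraries, but replicate 2 lay within its interval. The difference was 8.66 percentage points (exact two-sided permutation test of 3 libraries against 1, p = 0.25, the smallest possible; 0.25 adjusted over 6 tests). It rests on the read total implied by the fraction, and with the listed total of 656 AUH reads, in which site D counts 3 times for a reason not stated, it was 29.8 points. Within AUH the share was 36.4% at site A (interval 27.9 to 45.9), 51.9% at site B (42.4 to 61.3), 48.98% at site C (35.6 to 62.5) and 67.4% at site D (59.0 to 74.8). The intervals of sites A and D did not overlap. Only the value of site D was above the mean of GTPBP8, and the intervals of sites B, C and D included that mean. Both lists were selected on conversion in their own way: the lowest share of any site was 33.3% in the AUH list and 7.84%, 9.76% and 7.69% in the GTPBP8 lists. The GTPBP8 fraction may also leave out converted reads with further mismatches, and how the AUH fraction counts such reads is not stated. The protein, the tag, the selection and the counting cannot be told apart in the difference.

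A few nuclear sites carried sequence of the RNR2 sites. At most 2 mismatches over the whole nuclear site were allowed. By this rule 4 of 417, 4 of 695 and 3 of 398 nuclear sites of GTPBP8 replicates 1, 2 and 3 matched an RNR2 site of either protein. In the AUH list 0 of 674 did. With 9684 site reads against 402701, 627603 and 403172, the AUH list is too shallow for a contrast between the proteins. Together the matching sites held 305, 289 and 336 reads, no more than 0.108% of the RNR2 reads of their library. The largest was in MTRNR2L10, a nuclear gene on chromosome X that resembles RNR2, with 252, 248 and 281 reads. Its 29 nt differed by 1 base from chrM:3033-3061, which includes the modified A loop bases. Smaller ones of 19, 23 and 11 reads in replicate 1 and of 8 reads in replicate 2 matched the sequences of AUH sites B and C. No GTPBP8 library listed an RNR2 site there. The others matched the PTC site, with 10 reads in TACR1 and 23 in ERBB4 in replicate 2 and 41 and 14 reads in replicate 3. Whether such reads arose from the nuclear or the mitochondrial copy cannot be told apart from the lists.

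Over the 4 libraries, no gene followed the pattern of RNR2 closely. Of 20 other genes with a site in every library, the most alike in log2 CPM (site reads of a gene per 1000000 site reads of the library) centred on each gene's own mean were RNR1, ND4L/ND4, which encodes subunits of complex I, and COX3, a subunit of complex IV. Their root mean square difference from RNR2 was 1.60, 1.80 and 1.87 log2 units. RNR2 was 4.34 log2 units higher in the GTPBP8 libraries than in AUH on average, while RNR1, ND4L/ND4 and COX3 were 0.82, 0.20 and 0.52 higher. RNR2 itself made up 81.6%, 87.0% and 77.3% of the site reads of GTPBP8 replicates 1, 2 and 3 and 4.05% of those of AUH. This lowers the CPM of every other gene in the GTPBP8 libraries, and differences with RNR2 left out of the total were not computed.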

How the data were processed

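fPAR-CLIP sites of 3 GTPBP8::FLAG libraries and 1 AUH::V5 library were analysed. Per the labels and the study's methods, the authors demultiplexed reads with Bcl2fastq, trimmed them with Cutadapt and aligned them to hg38. They called the GTPBP8 sites in each library with PARpipe and PARalyzer. For each GTPBP8 site the authors deposited counts of reads, distinct read sequences and conversion events, fractions of reads with a conversion or an end at G, and a peak score. The caller of the AUH list, whose converted reads the authors deposited as estimated counts that need not be whole, has no stated name. AUH reads were computed as converted reads divided by their fraction, and rounded. The meaning of single-mismatch counts and of the fraction of read ends at G was taken from column names. Redundancy was read as the share of reads whose sequence recurs, which distinct sequences and counts gave to within 0.157 points.

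Sites were assigned to genes by strand and largest overlap with RefSeq coordinates (GRCh38.p14). Conversion rate is conversion events over all T observations. Measures of GTPBP8 were compared within each library with an exact sign-flip test and against AUH with an exact permutation test. Depth was the total of site reads, and intervals are 95% Wilson intervals that cover counting error only. Alternatives left out each replicate or changed the measure, the comparison sites or the denominator. The members, lists and comparisons were chosen with earlier results of these data known. The genes named beside RNR2 are the 3 with the smallest root mean square difference in centred log2 CPM. Scripts were tested on simulated data. Intervals and adjusted p-values were computed with scipy 1.17.1, and all other steps in Python 3.11.15 with pandas 2.3.3. The sequence of the PTC site is not reported here.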

Additional observations from a re-analysis of the deposited data

How the results depend on the processing

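The exact tests could not pass a threshold with 3 libraries, so direction is what the alternatives could change. Leaving out each GTPBP8 replicate kept every direction. The ratio of reads at the 5′ site to the PTC site ranged from 2.46 to 3.73, the difference in conversion rate between them from 5.56 to 8.22 percentage points, the difference of pooled RNR2 from other mitochondrial sites from 2.08 to 2.78 points in conversion rate, from 2.30 to 2.57 as a ratio of reads per distinct sequence and from 52.5 to 67.2 points in read ends at G, and the difference in converted reads between GTPBP8 and AUH from 6.51 to 12.3 points. Among the others, 3 alternatives turned a direction. Counted as reads listed with a conversion, the 5′ site was below the PTC site by a mean difference of -0.62 points. Relative to the common RNR1 site, chosen as a comparator after seeing the data, pooled RNR2 differed by -0.13 points in conversion rate and by -7.57 points in read ends at G. Pooled over the other sites by reads, the RNR2 difference in conversion rate was 1.04 points, with the opposite sign in replicate 2, and the ratio of reads per distinct sequence was 1.68. The cause of these changes was not tested. Other sites with at least 10 reads gave the same values, because every mitochondrial site had at least 10. With the listed AUH total, in which site D counts 3 times, GTPBP8 exceeded AUH by 29.8 points. No paired analysis was possible because AUH has 1 library; GTPBP8 comparisons were made within each library. The depth of the AUH list limits its shares to the intervals given.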
